A study of Mus musculus with 8 samples.

Results

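The genes described here encode intracellular lipases that break down stored triglyceride in the liver, proteins that switch them on or off, and related patatin-like enzymes. They are 10 genes of 19938 measured in the livers of ovariectomized (OVX) mice: Pnpla2, Lipe and Mgll of the neutral lipolysis chain, its regulators Abhd5 and G0s2, the related patatin-like genes Pnpla3, Pnpla5, Pnpla7 and Pnpla8, and the lysosomal lipase gene Lipa. All 8 animals were female C57B1/6J mice whose ovaries were removed at 7 weeks of age, and no array of a mouse with intact ovaries was analysed here. For 3 months, 4 of them were fed a high fat diet (HFD) and 4 that diet with white button mushroom powder (HFD+WBM). The mushroom diet held less corn starch. Food intake was controlled by pair feeding, by weight, and the mice were fasted for some hours before sacrifice. Each liver was hybridized to an Affymetrix Mouse Gene 1.0 ST array of its own. The genes were selected by name and function when earlier results of these arrays, among them the low Pnpla3 values of the HFD+WBM mice, were known, and the row of each gene was chosen by its mean over all 8 arrays. The comparison of the diets for Pnpla3 is therefore given as a description. All 10 genes were represented, each by a single probe set, and values are log2 expression values as deposited. The probe sets differ in their response, so that levels are compared between mice and not between genes.

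Triglyceride in a lipid droplet is taken apart in steps. Adipose triglyceride lipase, the product of Pnpla2, removes the first fatty acid, hormone-sensitive lipase (Lipe) acts on the diglyceride and monoglyceride lipase (Mgll) on the monoglyceride. Abhd5 encodes CGI-58, the coactivator that Pnpla2 needs for full activity, and G0s2 encodes an inhibitor that binds the same lipase. Pnpla3 lies on the droplet surface, is known as a target of the lipogenic transcription factor SREBP1c and is high after feeding, whereas Pnpla2 is known to be raised by fasting through FoxO1. Lipa works in the lysosome, on lipid that arrives there from lipoproteins or engulfed droplets.

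Livers were checked and compared as whole tissue. The array medians were 7.04 to 7.22, the 8 arrays correlated with r of 0.920 to 0.973 over all probe sets, and HFD replicate 3 stood farthest from the rest. Without that mouse the log2 fold changes of Abhd5 and Pnpla3 were -0.42 and -2.27 and still passed p under 0.05 before adjustment. Hepatocyte markers were high on every array (mean of 9 measured markers 13.33 to 13.46 with HFD and 13.42 to 13.54 with HFD+WBM), and none of the 9 passed p under 0.05. As higher, 2 passed with a prior variance that follows the level and 1 by a test with equal variances and no moderation. With a mouse left out, 0 to 1 did so. In whole tissue, fewer cells of a type and less RNA per cell cannot be told apart. No gene of the 19938 had an adjusted p under 0.05 from limma, while 2341 had p under 0.05 before adjustment.

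Of the 10 genes, Abhd5 and Pnpla3 had p under 0.05 before adjustment, both lower with HFD+WBM, and the other 8 did not pass. Over all genes, 6.90% were lower and 4.85% were higher at the same threshold. Since the difference in Pnpla3 was known when the genes were chosen, its place in the count is a description, and nothing is read from the count against the share of all genes. Pnpla3 alone also met the 2-fold change used by the study, which 0.497% of all genes met as lower and 0.266% as higher. Abhd5 alone had no overlap between the mice of both diets, which held for 8.23% of all genes. The median log2 fold change of the 10 genes was -0.11, against 0.01 for all genes, and 5 of the 10 estimates were below 0.

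**Figure D1:**
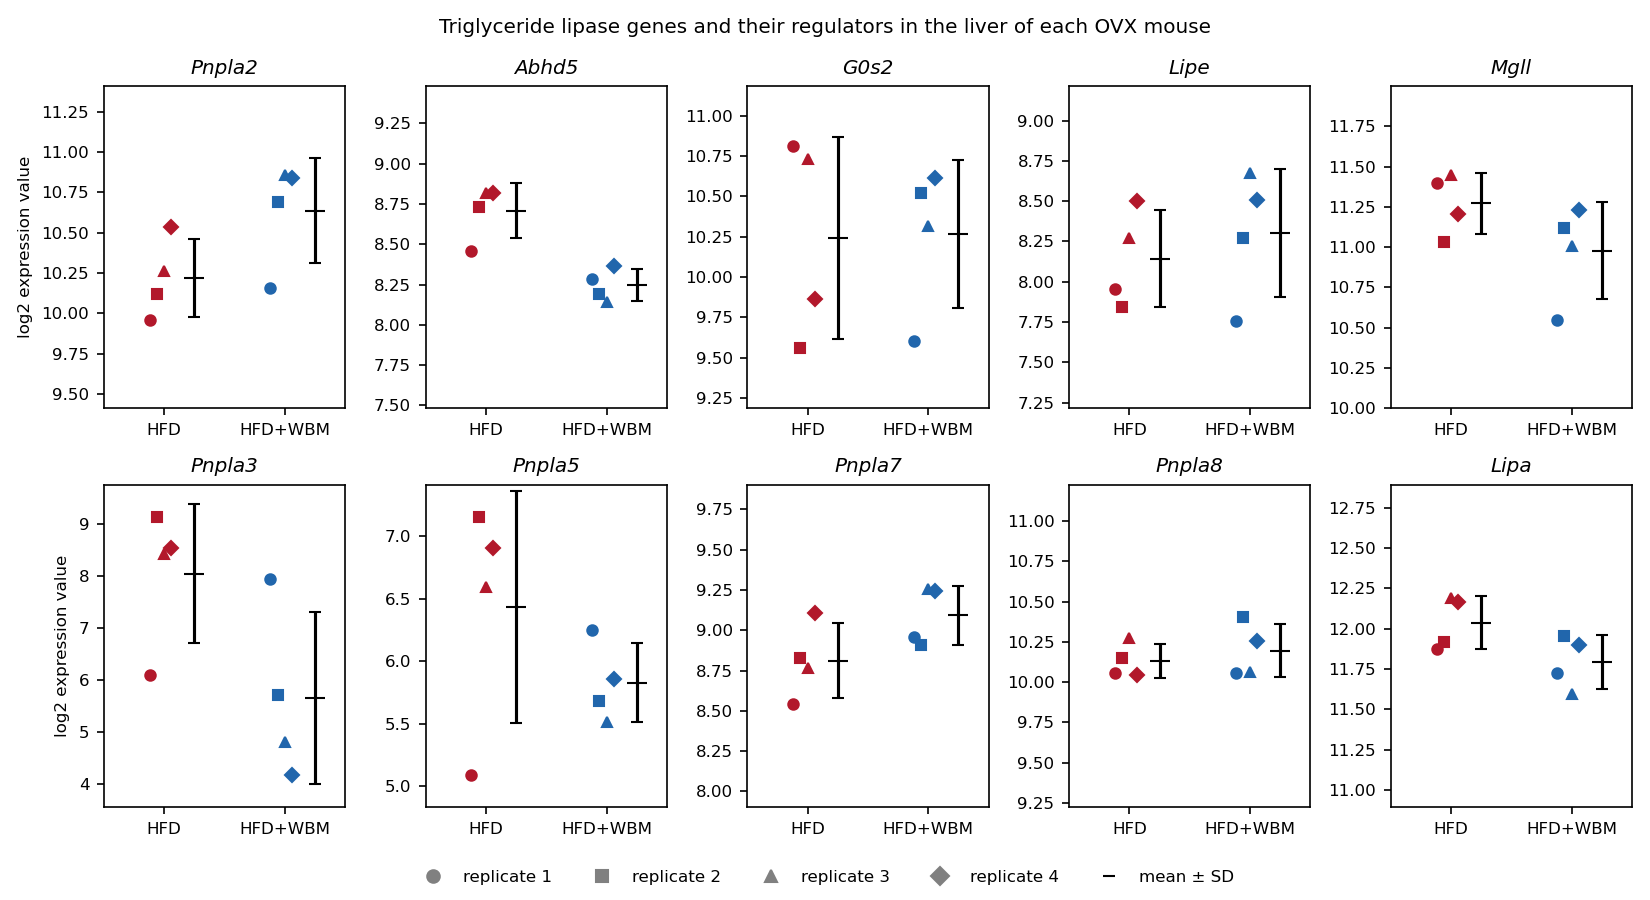
Log2 expression values of the 10 genes in each OVX mouse (vertical axes, which differ between panels), with red for HFD, blue for HFD+WBM, a marker shape for each replicate number and the mean and SD of 4 mice in black. Abhd5 separates the diets in all 8 mice, and for Pnpla3 the circles (replicate 1 of each diet) cross over.

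Sequence upstream of 4 of these genes is shown because Pnpla3 and Pnpla5 are neighbours that varied together over the mice, and because Pnpla2 and its coactivator Abhd5 had estimates of opposite sign. The stretches come from RefSeq promoter windows of the mouse build GRCm38.p6 and end at the annotated transcription start, or for Pnpla3 39 bases before it, since a longer annotated transcript begins near that base. Capitals mark letters found on either strand: GGGCGG (the GC box bound by Sp1), CCAAT (bound by NF-Y), CACGTG (an E-box) and TGACGTCA (the cAMP response element).
Pnpla3, chr15:84167566-84167777, plus strand: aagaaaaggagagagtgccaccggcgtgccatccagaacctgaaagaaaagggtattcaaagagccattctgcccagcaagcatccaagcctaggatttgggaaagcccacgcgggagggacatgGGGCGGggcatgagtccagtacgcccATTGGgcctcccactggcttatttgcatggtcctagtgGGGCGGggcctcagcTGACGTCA
Pnpla5, chr15:84123176-84123425, minus strand: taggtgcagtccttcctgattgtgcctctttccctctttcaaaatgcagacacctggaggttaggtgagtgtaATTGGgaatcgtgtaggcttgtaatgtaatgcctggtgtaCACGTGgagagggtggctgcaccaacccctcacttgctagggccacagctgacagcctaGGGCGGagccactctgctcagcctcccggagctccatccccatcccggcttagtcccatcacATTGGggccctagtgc
Pnpla2, chr7:141454938-141455187, plus strand: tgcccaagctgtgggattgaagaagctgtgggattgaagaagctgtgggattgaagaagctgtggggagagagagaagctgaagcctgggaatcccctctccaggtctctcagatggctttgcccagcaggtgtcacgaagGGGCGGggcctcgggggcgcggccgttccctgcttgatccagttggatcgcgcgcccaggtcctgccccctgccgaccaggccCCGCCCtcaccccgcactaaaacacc
Abhd5, chr9:122351366-122351615, plus strand: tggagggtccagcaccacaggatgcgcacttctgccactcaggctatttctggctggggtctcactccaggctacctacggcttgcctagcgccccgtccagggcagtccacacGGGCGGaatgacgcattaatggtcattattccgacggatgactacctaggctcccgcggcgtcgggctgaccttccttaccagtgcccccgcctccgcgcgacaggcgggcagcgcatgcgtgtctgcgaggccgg

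The windows of Pnpla3 and Pnpla5 both held a GC box and CCAAT letters, which stood in 32.7% and 33.8% of 32851 RefSeq windows of 250 bases. The cAMP response letters of the Pnpla3 window, added to the search after the window had been read, stood in 1.55% of all windows, and the E-box letters of the Pnpla5 window in 6.02%. A sterol response sequence (TCACNCCAC, in 1.05% of windows) and a forkhead sequence (TGTTTAC, in 3.17%) were also searched and are not among the letters of these 4 windows. Those of Pnpla2 and Abhd5 held GC boxes alone. The searched windows of the lipogenic genes Acaca, Elovl6, Fasn and Srebf1 held no sterol letters either. A match describes letters and is not a binding site, and a missing match in 250 bases does not show that no site exists.

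Abhd5, which encodes the coactivator of the Pnpla2 lipase, was lower with HFD+WBM in all 4 mice, without overlap. Its values in HFD mice 1 to 4 were 8.46, 8.73, 8.82 and 8.82, and those in HFD+WBM mice 1 to 4 were 8.28, 8.19, 8.14 and 8.37. The gap lay between 8.37 (HFD+WBM replicate 4) and 8.46 (HFD replicate 1). The mean went from 8.71 ± 0.17 to 8.25 ± 0.10 (log2, SD, n = 4 each), a 1.38-fold lower level. The log2 fold change was -0.46 (standard error, SE, 0.15 and 95% interval -0.79 to -0.13), and the adjusted p over all genes from limma was 0.37. The exact permutation test of the 2 diets, two-sided, gave p = 0.029, the smallest that 4 mice against 4 allow. The pooled SD within the diets was 0.14, in the lowest 6.46% of all genes. Under each of the 8 omissions of a mouse the estimate lay between -0.54 and -0.42 and passed p under 0.05.

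Pnpla2 itself, the lipase that Abhd5 activates, had an estimate in the other direction and did not pass. It was 9.96, 10.12, 10.26 and 10.53 in HFD mice 1 to 4 and 10.16, 10.69, 10.86 and 10.84 in HFD+WBM mice 1 to 4. Replicates 2, 3 and 4 of HFD+WBM lay above all HFD mice, and HFD+WBM replicate 1 lay among them. The means were 10.22 ± 0.24 with HFD and 10.64 ± 0.33 with HFD+WBM (SD, n = 4 each), and the log2 fold change was 0.42 (SE 0.20, 95% interval -0.04 to 0.87). The exact permutation p was 0.086, two-sided, and the adjusted p from limma was 0.45. The estimate passed p under 0.05 before adjustment without HFD+WBM replicate 1 (0.58) or HFD replicate 4 (0.52). It also passed with quantile normalization (0.46), with an offset of 64 before the log (0.40), with the 50% brightest genes alone, with a prior variance that follows the level and with the replicate number as a block. Within each mouse, the log2 value of Abhd5 minus that of Pnpla2 was -1.72 to -1.39 in the HFD mice and -2.72 to -1.88 in the HFD+WBM mice, without overlap. This difference is a description, since both genes were already known when it was formed.

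G0s2, the inhibitor of the same lipase, varied more between mice than between diets. It was 10.81, 9.56, 10.73 and 9.86 in HFD mice 1 to 4 and 9.61, 10.52, 10.32 and 10.62 in HFD+WBM mice 1 to 4. Values near both ends of the range occurred on each diet. The log2 fold change was 0.03 (SE 0.33), and its 95% interval of -0.72 to 0.77 allows changes up to 1.64-fold lower or 1.70-fold higher.

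The enzymes of the next steps did not pass either. Lipe, the diglyceride lipase, was 7.96, 7.84, 8.27 and 8.50 in HFD mice 1 to 4 and 7.76, 8.27, 8.67 and 8.51 in HFD+WBM mice 1 to 4. The diets overlapped almost fully, with a log2 fold change of 0.16 (SE 0.23, 95% interval -0.36 to 0.68). Mgll, which releases the last fatty acid, was 11.40, 11.03, 11.45 and 11.21 with HFD and 10.55, 11.12, 11.01 and 11.23 with HFD+WBM, in the same order of mice. Its log2 fold change was -0.29 (SE 0.19, 95% interval -0.71 to 0.12), and HFD+WBM replicate 1 was the lowest of all 8 mice, as it was for Lipe. Adipose tissue is rich in these enzymes. Of 8 measured adipocyte markers 2 were lower with HFD+WBM (Fabp4 and Slc2a4) and none was higher. Over all genes 6.90% were lower and 4.85% were higher. Fabp4 and Slc2a4 were dim, at percentiles 29.7 and 33.1 of all genes by mean level, and Slc2a4 overlapped between the diets. The number of adipocyte markers lower was 0 with the 50% brightest genes alone and 1 by a test with equal variances and no moderation. It was 3 with the replicate block, and 2 to 3 with a mouse left out. The mean of the 8 markers was 6.80 to 7.39 in the HFD mice and 6.52 to 6.82 in the HFD+WBM mice. Without a test, Adipoq, a fat cell hormone gene, ran from 4.72 to 6.28 over all mice. Cebpa, a transcription factor that hepatocytes also express, ran from 10.35 to 11.22. Their log2 fold changes were 0.20 (SE 0.30) and 0.03 (SE 0.20), and that of the hormone gene Lep was 0.07 (SE 0.26). The estimates of the other 5 adipocyte markers were below 0. The part of adipocyte RNA in the values of Lipe, Mgll and Pnpla2 was not tested.

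**Figure D2:**
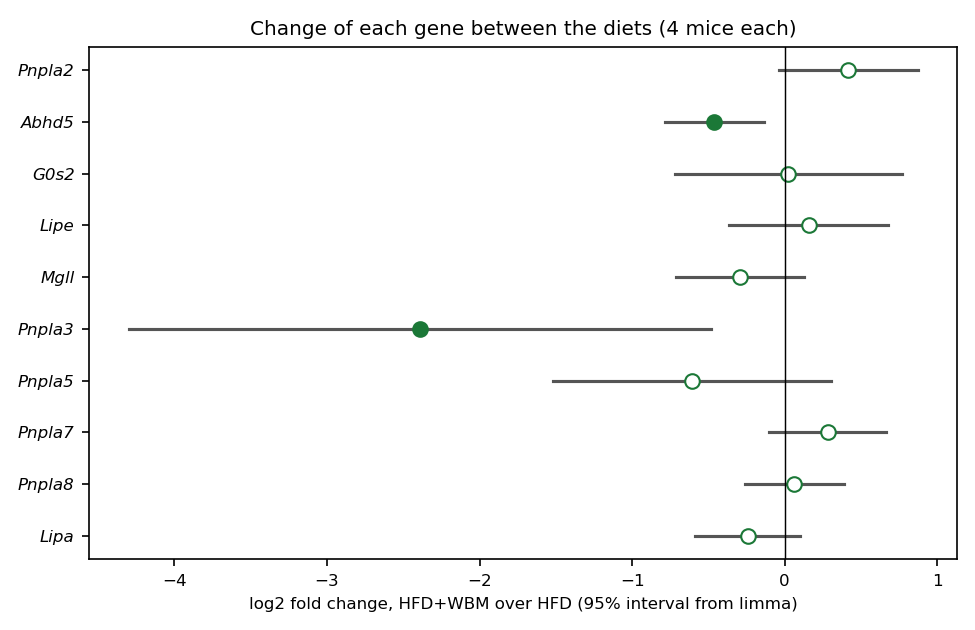
Log2 fold change of each gene, HFD+WBM over HFD, with its 95% interval from limma (horizontal axis) for 4 OVX mice on each diet, with filled points for p under 0.05 before adjustment. Abhd5 has a short interval below 0, Pnpla3 a wide one from -4.30 to -0.48, and the other 8 intervals include 0.

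Pnpla3, the droplet protein that follows feeding, was lower with HFD+WBM with the largest estimate of the 10 genes and with the largest spread. It was 6.10, 9.13, 8.42 and 8.53 in HFD mice 1 to 4 and 7.94, 5.71, 4.80 and 4.17 in HFD+WBM mice 1 to 4. HFD replicate 1 lay below HFD+WBM replicate 1, and all other HFD mice lay above all HFD+WBM mice. The means were 8.05 ± 1.33 and 5.66 ± 1.65 (SD, n = 4 each), 5.25-fold lower. On the log2 scale the change was -2.39 (SE 0.85). As limits and not as tests of a gene chosen for this difference, limma gave an adjusted p of 0.39 over all genes and the exact permutation p was 0.057, two-sided. The pooled SD within the diets was 1.5, which was 5.03 times the median of all genes and higher than that of 99.4% of them. The mean over the 8 mice, 6.85, lay below the median of all genes, 7.27, and an offset of 64 before the log reduced the estimate to -1.44. The estimate ranged from -3.15 without HFD+WBM replicate 1 to -1.90 without HFD+WBM replicate 4. It missed p under 0.05 without HFD replicate 2, HFD+WBM replicate 3 or HFD+WBM replicate 4.

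Pnpla5, a close relative of Pnpla3, had a similar order of mice at a low signal. Both genes lie on chromosome 15 in opposite orientation, with 2 predicted genes between them. Pnpla5 was 5.09, 7.15, 6.59 and 6.90 in HFD mice 1 to 4 and 6.25, 5.68, 5.52 and 5.86 in HFD+WBM mice 1 to 4. HFD replicate 1 lay below all HFD+WBM mice and the other HFD mice lay above them. As for Pnpla3, HFD replicate 1 was the lowest HFD mouse and HFD+WBM replicate 1 the highest HFD+WBM mouse. With all mice the log2 fold change was -0.61 (SE 0.41, exact permutation p = 0.26, two-sided). Without HFD replicate 1 it was -1.06 and passed p under 0.05 before adjustment, as it did with an offset of 64 before the log (-0.37). Whether probes of these related genes share signal was not tested.

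The genes nearest to Pnpla3 in pattern were of several kinds. Acaca, which makes malonyl-CoA, put the 8 mice in the same order as Pnpla3, from 12.22 in HFD replicate 2 to 10.39 in HFD+WBM replicate 4. Likeness was measured by the Pearson correlation with Pnpla3 over the 8 arrays after each diet's mean had been subtracted, among 9969 genes above the median level. By that measure Elovl6, the fatty acid elongase, ranked 3 (r = 0.97), Acaca ranked 4 (r = 0.95) and Fasn, fatty acid synthase, ranked 16 (r = 0.92). Ptprj, a receptor tyrosine phosphatase, ranked 1 (r = 0.98), Lsm4, a splicing factor, ranked 2 (r = 0.97) and Svil, the actin-binding supervillin, ranked 5 (r = 0.95). Thrsp, a regulator of lipogenesis, ranked 157 (r = 0.79). Ranks among so many genes and 8 arrays are a description and carry no test. Ptprj had a log2 fold change of 0.01 between the diets, against -1.74 for Elovl6.

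Srebf1, which encodes SREBP1, followed Pnpla3 less closely. It was 11.97, 11.93, 11.37 and 11.21 in HFD mice 1 to 4 and 12.09, 10.62, 10.82 and 10.98 in HFD+WBM mice 1 to 4. HFD replicate 1, low for Pnpla3, was the second highest of the 8 mice for Srebf1. The log2 fold change of Srebf1 was -0.50 (SE 0.33) and that of Mlxipl, which encodes ChREBP, was -0.02 (SE 0.20). Of 16 lipogenic targets and regulators, 7 passed as lower and none as higher, and 9 missed p under 0.05 before adjustment. All 16 estimates were below 0, with a median of -0.68. The 4 with the smallest p were Tkfc, a kinase of fructose metabolism (-0.68), Elovl6 (-1.74), Thrsp (-1.24), and Pklr, the liver pyruvate kinase (-0.93). Over all genes 6.90% were lower. Without HFD replicate 1, 14 of the 16 passed as lower. With an offset of 64 before the log or a prior variance that follows the level, 11 did so. The number lower was 6 by a test with equal variances and no moderation, and with the replicate block. It was also 6 without HFD replicate 2 or HFD replicate 3. The list was assembled with these results known.

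**Figure D3:**
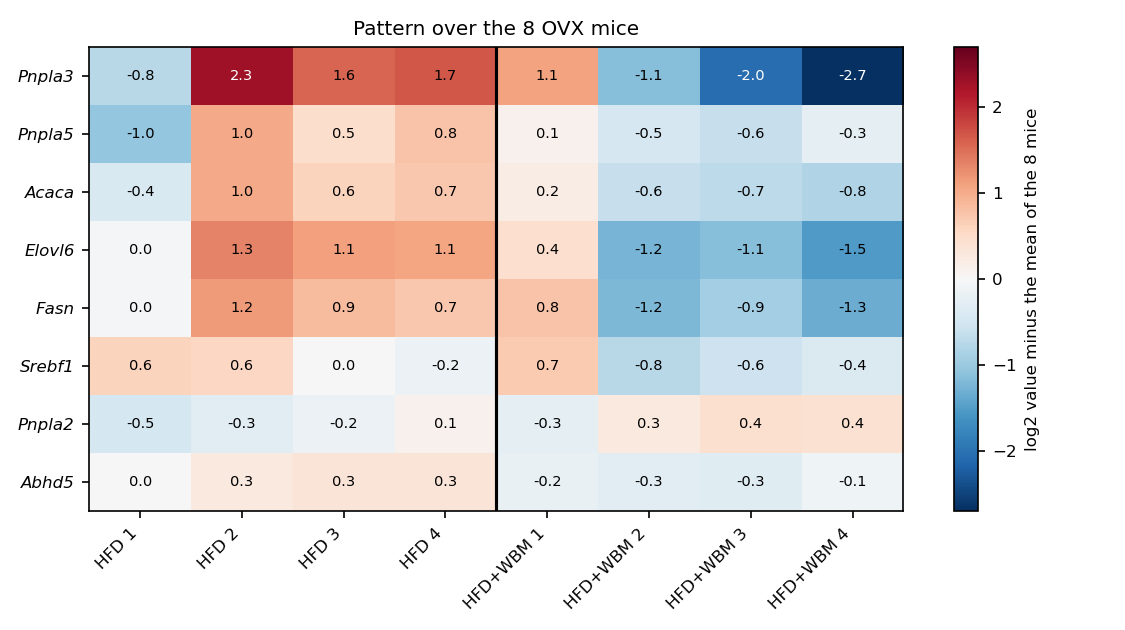
Log2 value of each gene minus its mean over the 8 OVX mice (colour and printed number), by mouse, with a line between the diets. Pnpla3, Pnpla5, Acaca, Elovl6 and Fasn were lower in HFD replicate 1 than in the other HFD mice and higher in HFD+WBM replicate 1 than in the other HFD+WBM mice, and Pnpla2 was at its lowest of each diet in these same mice.

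The more distant patatin-like genes did not pass. Pnpla7, which encodes a lysophospholipase, was 8.55, 8.83, 8.76 and 9.11 with HFD and 8.96, 8.91, 9.26 and 9.25 with HFD+WBM, in mice 1 to 4 of each. The estimate was 0.28 (SE 0.17, 95% interval -0.10 to 0.66), and HFD replicate 4 lay within the HFD+WBM range. Pnpla8, which encodes a calcium-independent phospholipase A2, ranged from 10.04 to 10.28 with HFD and from 10.06 to 10.40 with HFD+WBM. Its log2 fold change was 0.06 with a 95% interval of -0.26 to 0.39, the narrowest of the 8 genes that did not pass, and it limits a change to 1.31-fold higher or 1.20-fold lower.

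Lipa, the lysosomal acid lipase gene, had a lower estimate that did not pass. It was 11.87, 11.92, 12.19 and 12.17 in HFD mice 1 to 4 and 11.72, 11.96, 11.59 and 11.90 in HFD+WBM mice 1 to 4. HFD+WBM replicates 2 and 4 lay within the HFD range and the other HFD+WBM mice lay below it. The log2 fold change was -0.24 (SE 0.15, 95% interval -0.59 to 0.10, exact permutation p = 0.14, two-sided). Of 14 measured lysosomal partners, 3 were lower, none was higher and 11 did not pass (median -0.22). The 3 were Lamtor1, a lysosomal scaffold of nutrient signalling (-0.53, SE 0.15), Mitf, a transcription factor related to TFEB (-0.51, SE 0.20), and Ctsd, the protease cathepsin D (-0.35, SE 0.15), each without overlap between the diets. Over all genes 6.90% were lower, 4.85% were higher and 8.23% had no overlap between the diets. Without HFD replicate 4 or HFD+WBM replicate 1, and with the replicate block, 1 of the 14 was lower. The number higher was 2 with an offset of 64 before the log. It was 1 with the brightest genes or the prior variance that follows the level, and 0 to 1 with a mouse left out. Npc1, which exports cholesterol from lysosomes, was next by p and did not pass (0.34, SE 0.17). Macrophages hold many lysosomes, and of 13 Kupffer cell and macrophage markers 10 were lower with HFD+WBM and none was higher. Their mean was 8.92 to 9.48 in the HFD mice and 8.41 to 8.94 in the HFD+WBM mice. The part of macrophage RNA in the values of Lipa, Abhd5 and the lysosomal genes was not tested. Of the other cell types, none of 7 lymphocyte and 5 cholangiocyte markers passed. Of 10 stellate cell markers none was higher. Des (0.33, SE 0.16) and Ngfr (0.39, SE 0.18) had estimates above 0 and did not pass. The number of stellate markers higher was 2 with arrays centred on their medians or the brightest genes, and 0 to 1 with a mouse left out. It was 1 with quantile normalization, an offset of 64, the prior variance that follows the level, the unmoderated test or the replicate block. As lower, 3 of the 10 stellate cell markers and 1 of 8 sinusoidal endothelial markers passed, beside 6.90% of all genes. With a mouse left out these counts were 1 to 4 for stellate cells (1 without HFD replicate 3, HFD replicate 4, HFD+WBM replicate 2 or HFD+WBM replicate 3) and 1 to 3 for endothelium (3 without HFD replicate 1, 2 without HFD+WBM replicate 4).

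Around the lipases, most other hydrolases and droplet proteins did not pass. Of 17 other triglyceride and acylglycerol hydrolases 2 were lower, 1 was higher and 14 did not pass (median -0.03), beside 6.90% lower and 4.85% higher over all genes. The number higher was 4 with an offset of 64 before the log, 6 with a prior variance that follows the level, and 0 to 2 with a mouse left out (0 without HFD replicate 3, HFD replicate 4, HFD+WBM replicate 2 or HFD+WBM replicate 4). Lpl, which clears triglyceride from lipoproteins, was 1.72-fold lower, and Ddhd1, a phospholipase, was 1.29-fold lower without overlap. Lipg, the endothelial lipase, was 1.47-fold higher. Ces1f and Ces1d, liver carboxylesterases of the endoplasmic reticulum that hydrolyse triglyceride, had log2 fold changes of 0.28 (SE 0.14) and 0.32 (SE 0.16) and did not pass.

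Of 17 droplet coat and docking proteins, 2 were lower, 1 was higher and 14 did not pass (median -0.22), beside the same shares over all genes. The number lower was 4 with an offset of 16 before the log, 5 with an offset of 64 or a prior variance that follows the level, 1 with arrays centred on their medians or quantile normalization, 1 without HFD replicate 3, and 0 without HFD replicate 4 or HFD+WBM replicate 3. Copa, a subunit of the COPI coat that delivers the Pnpla2 protein to droplets, was 1.27-fold lower without overlap, from values of 11.24 to 11.40 in the HFD mice to 10.84 to 11.05 in the HFD+WBM mice. Plin3, a droplet coat protein, was 1.46-fold lower and Cidea, which promotes droplet fusion, was 1.66-fold higher. Cidea was dim, at percentile 31.6 of all genes by mean level. It ran from 5.83 to 7.04 over all mice, with overlap between the diets. The number of droplet genes higher was 0 with the 50% brightest genes alone, which leave out Cidea. It was 2 with the prior variance that follows the level, and 1 to 2 with a mouse left out. Cidec, of the same family as Cidea, had a log2 fold change of -0.95 (SE 0.44) and did not pass. Plin2, the main droplet coat protein of liver, had a log2 fold change of -0.10 (SE 0.22), and Plin5, which binds both Pnpla2 and Abhd5, one of -0.74 (SE 0.37), and neither passed.

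Genes raised by fasting had mostly higher estimates. Of 13 measured FoxO1, PPAR alpha and fasting targets, 3 were higher, none was lower and 10 did not pass (median 0.38). Over all genes 4.85% were higher, 6.90% were lower and 8.23% had no overlap between the diets. The number higher was 5 with either offset before the log, the prior variance that follows the level, the replicate block or the brightest genes. It was 6 without HFD replicate 4 and 2 without HFD replicate 1 or HFD replicate 3. As lower, 1 passed with either offset or the prior variance that follows the level, and 0 to 1 with a mouse left out. Foxo1, the regulator of Pnpla2, was 10.12, 10.46, 10.16 and 10.46 in HFD mice 1 to 4 and 10.58, 10.71, 10.67 and 10.87 in HFD+WBM mice 1 to 4, without overlap (log2 fold change 0.41, SE 0.15). Irs2, an adaptor of the insulin receptor, was 2.54-fold higher and Txnip, a thioredoxin-binding protein, 1.59-fold higher, also without overlap. Pck1, the gluconeogenic PEPCK, was next by p (0.51, SE 0.23) and did not pass. The 2 estimates below 0 were those of Fgf21 (-0.60, SE 0.30) and G6pc (-0.11, SE 0.25), and neither passed. Of 8 measured genes of beta-adrenergic and cAMP control, Adcy9, an adenylyl cyclase, was higher (0.48, SE 0.19), none was lower and 7 did not pass, among them the phosphodiesterases Pde4d (0.37, SE 0.17) and Pde3b (0.28, SE 0.15) and the cyclase Adcy6 (0.40, SE 0.23). No gene of these lists had an adjusted p under 0.05 over all genes from limma.

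**Figure D4:**
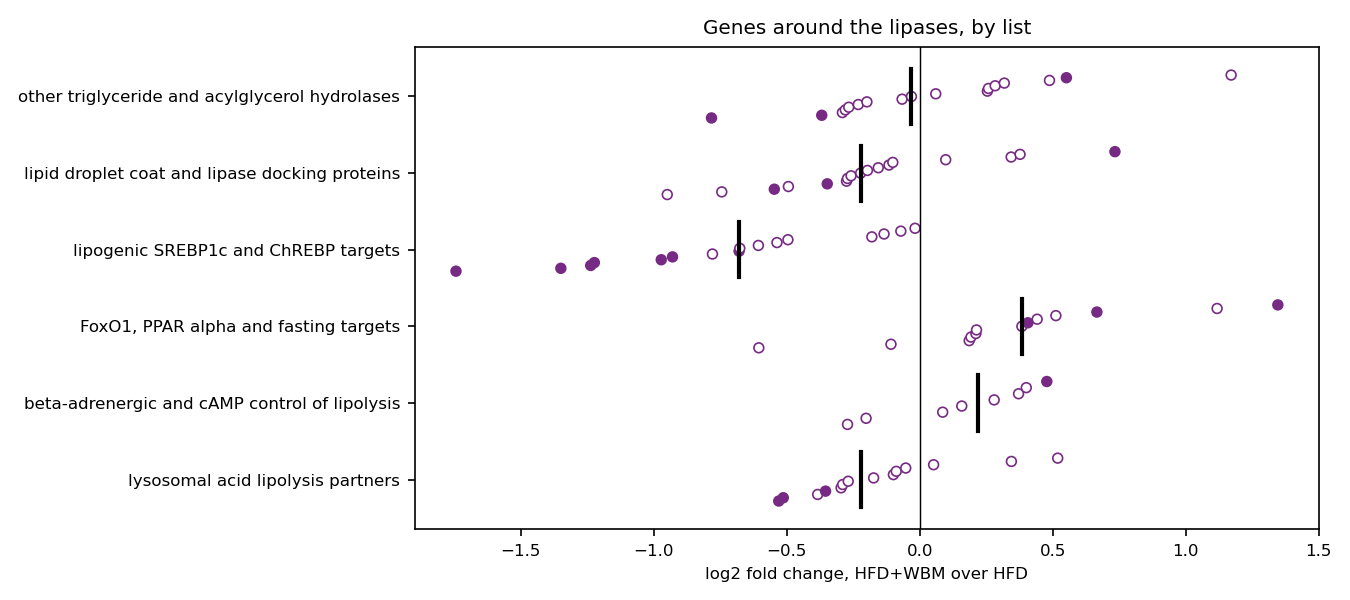
Log2 fold change, HFD+WBM over HFD, of each measured gene in 6 lists of genes around the lipases (horizontal axis), with filled points for p under 0.05 before adjustment and a black bar for the median of the list. All 16 lipogenic estimates lie below 0, 11 of the 13 fasting targets lie above it, and the hydrolases lie on both sides.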

How the data were processed

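Liver RNA of 8 OVX mice (4 HFD, 4 HFD+WBM) was measured on single-colour Affymetrix Mouse Gene 1.0 ST arrays, a single array for each mouse. Background correction, normalization and summary per probe set were done by the authors with IterPLIER (Affymetrix Power Tools 1.8.6). The values as deposited were taken as log2 from their range. Neither an offset under the log nor a genome build was named in the sources used here. Groups and replicate numbers came from the sample titles. Probe sets took their gene from the platform annotation, with symbols brought to GRCm38.p6 through the gene number (21698 of 21789 matched, 0 changed). A gene with several probe sets kept the brightest by mean. The 19938 genes were fitted together by diet alone in limma 3.58.1 (lmFit and eBayes, R 4.3.3), and Benjamini-Hochberg adjustment ran over all of them. The fit was tested on simulated data. A gene passed at p under 0.05 before adjustment; the study also asked for a 2-fold change. Standard errors and 95% intervals are those of limma, and permutation tests ran over all 70 divisions of the mice.

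The members and lists were chosen with earlier results of these data known. Genes were named by rule: the 10 members, the 4 of smallest p in each pathway list, Fasn, Elovl6, Srebf1 and Mlxipl, and those nearest in pattern to Pnpla3 (5, Acaca among them) and Pnpla2 (3). Adipoq, Cebpa, Ces1d, Des, Fabp4, Fgf21, G6pc, Lep, Ngfr, Plin2, Plin5 and Slc2a4 were added after their values were seen. The number of arrays limits the precision. The alternatives were: arrays centred on their medians, quantile normalization, offsets of 16 and 64 under the log, the 50% brightest genes, probe sets of a gene averaged, a prior variance that follows the level, weights for the arrays, a test with equal variances and no moderation, the replicate block, a 1.5-fold threshold, and each mouse left out.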

Additional observations from a re-analysis of the deposited data

How the results depend on the processing

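Abhd5 stayed lower at p under 0.05 before adjustment under all 10 other settings and all 8 omissions of a mouse (log2 fold change -0.54 to -0.39). Of the 10 genes, the number lower was 2, and it was 1 with the 50% brightest genes alone (which leave out Pnpla3 and Pnpla5), 1 by a test with equal variances and no moderation (which Pnpla3 missed), 3 with an offset of 64 before the log (Pnpla5 added), 4 with a prior variance that follows the level (Mgll and Lipa added), and 1 to 3 when a mouse was left out. The number higher was 0, and it was 1, Pnpla2, with quantile normalization, an offset of 64, the brightest genes, the prior variance that follows the level and the replicate block, and 0 to 1 when a mouse was left out. The number past both thresholds of the study was 1, and it was 0 with the brightest genes and by the unmoderated test, and 0 to 2 when a mouse was left out. With the prior variance that follows the level, 139 genes had an adjusted p under 0.05 from limma. Abhd5 was not among them (0.19), and Pnpla3 was, which is no test since its difference was known. The log2 fold change of G0s2 turned below 0 without HFD replicate 2 (-0.20), HFD replicate 4 (-0.10), HFD+WBM replicate 2 (-0.06) or HFD+WBM replicate 4 (-0.09), and that of Pnpla8 without HFD+WBM replicate 2 (-0.0044). When a mouse was left out, G0s2 ranged from -0.20 to 0.25 and Pnpla8 from -0.0044 to 0.11. No other estimate of the 10 genes changed sign. The counts of the lists moved too: with a mouse left out, 6 to 14 lipogenic genes, 1 to 4 lysosomal genes and 8 to 11 macrophage markers passed as lower, 0 to 3 droplet genes as lower and 2 to 6 fasting targets as higher. The cause of these shifts was not tested. Mice of the same replicate number did not deviate together (correlations -0.12 to -0.02), and none of the 4 HFD mice correlated best with its own number. With so few mice a weak shared effect would not be seen. The sample titles state no pairing, and the replicate block was not read as one. With the block 1757 genes passed p under 0.05 in place of 2341.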

Other observations

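Pnpla2 and Lipe, the lipases of the first steps, varied together within the diets. Lipe ranked 10 of 9968 genes by the correlation with Pnpla2 after each diet's mean was subtracted (r = 0.95 over 8 arrays, a description with no test). Nearest to Pnpla2 were Stard7, a phosphatidylcholine transfer protein (r = 0.99), Abhd1, a hydrolase of the Abhd5 family (r = 0.98), and Gnpat, an enzyme of ether lipid synthesis (r = 0.97). Stard7 put the 8 mice in the same order as Pnpla2, from 10.92 in HFD replicate 1 to 11.24 in HFD+WBM replicate 3. Gnpat was high with Pnpla2 within a diet and lower with HFD+WBM between the diets, with a log2 fold change of -0.35 (p under 0.05 before adjustment).

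G0s2 and Mgll ran against Pnpla3 within the diets (r = -0.79 and -0.81). In HFD replicate 2, where Pnpla3 was highest, G0s2 (9.56) and Mgll (11.03) were the lowest of the HFD mice, and in HFD+WBM replicate 1, the highest HFD+WBM mouse for Pnpla3, both were the lowest of that diet (9.61 and 10.55). These genes were not tested against each other.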
